A study of Mus musculus with 6 samples.

Results

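The genes described here are the 3 main receptors for fibroblast growth factors (FGFs) in the fetal brain, *Fgfr1*, *Fgfr2* and *Fgfr3*, the ligand gene *Fgf15*, and 6 genes that FGF signaling switches on, *Spry1*, *Spry2*, *Spry4*, *Etv4*, *Etv5* and *Dusp6*. They were chosen by name, and all 10 were present among the 45583 rows of the count table and among the 13741 genes with enough reads to be tested. The table covers the brain cortex of 6 fetal mice at GD15.5 (gestational day), 3 per group, all of the Cyp19-EGFP strain and all labelled wild type and SRY positive, that is, male. Dams received bisphenol A (BPA, a plastic monomer with weak estrogenic action) at 50 µg/kg, or the peanut oil vehicle, from GD10.5 to GD14.5. According to the study's methods the doses were injected under the skin daily and BPA was dissolved in ethanol and peanut oil, and a supplement to the study describes the vehicle of dams dosed over the same days for another experiment as containing ethanol too. The Cyp19-EGFP line carries a transgene in which the control regions of an extra aromatase gene drive green fluorescent protein. The labels and the study's methods give this age, whereas its results section names a later one. The labels number the fetuses and do not name their dams, so that p-values measure the spread between these fetuses, some of which may be littermates.

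FGFs bind receptor tyrosine kinases on radial glia, the stem cells that line the ventricle of the fetal cortex, and the signal passes through the adaptor FRS2 and the RAS-ERK kinase chain. ERK activity raises the Ets transcription factors ETV4 and ETV5 and a group of brakes on the same chain: the Sprouty proteins, which act between receptor and RAF, and the phosphatase DUSP6, which inactivates ERK itself. Levels of these target transcripts are widely read as a measure of FGF-ERK activity. In the developing cortex FGFs from the rostral pole pattern its areas, and FGF receptors keep radial glia dividing.

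The upstream windows of 3 of the target genes are shown for the DNA next to their starts, where binding sites of the pathway's factors can be looked for. They are the 250 bases before a transcription start in RefSeq (GRCm38.p6), written 5′ to 3′ on the strand of the gene, and hold no annotated exon. The *Etv5* window (chr16:22438369-22438618, minus strand) lies inside the gene, before an inner start. The *Dusp6* window is chr10:99262981-99263230 (plus strand) and the *Spry2* window is chr14:105896820-105897069 (minus strand). Capitals mark matches to TGAATGAA, TGAATGAG, TGAATGGA and TGAATGGG on both strands. These are some of the octamers bound by Capicua (CIC), the repressor that ERK removes from its targets. Forms of the site that begin with TCAATG were not searched.
Etv5: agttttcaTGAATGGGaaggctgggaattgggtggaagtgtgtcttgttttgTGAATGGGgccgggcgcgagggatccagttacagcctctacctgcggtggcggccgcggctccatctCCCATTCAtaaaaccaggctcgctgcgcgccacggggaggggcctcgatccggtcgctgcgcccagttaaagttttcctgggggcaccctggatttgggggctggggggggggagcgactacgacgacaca
Dusp6: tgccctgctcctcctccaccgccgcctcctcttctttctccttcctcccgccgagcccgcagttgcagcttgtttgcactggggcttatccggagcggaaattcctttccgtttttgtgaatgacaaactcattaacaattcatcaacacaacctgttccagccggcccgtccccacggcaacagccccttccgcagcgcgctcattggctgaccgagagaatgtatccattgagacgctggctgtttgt
Spry2: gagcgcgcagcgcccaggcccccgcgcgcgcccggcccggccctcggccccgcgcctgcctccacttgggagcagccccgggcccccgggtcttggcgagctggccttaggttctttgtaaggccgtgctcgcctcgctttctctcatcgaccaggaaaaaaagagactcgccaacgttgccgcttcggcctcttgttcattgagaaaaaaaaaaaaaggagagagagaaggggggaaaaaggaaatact
The *Etv5* window held 3 matches, starting 242, 198 and 131 bases before the start, the last on the opposite strand. Windows with any match made up 3.86% of the 32851 windows of the same length in the table, and windows with 3 or more made up 0.0426%. The octamers were chosen with these windows in view, so the shares are a description. RefSeq windows were matched for 6 of the 10 genes (8 windows, also covering *Spry1*, *Fgfr2*, *Fgfr3* and an outer start of *Etv5*), and the other 7 windows held no match. None of the 8 held the palindromic estrogen response element (GGTCA, any 3 bases, TGACC), present in 0.0639% of all windows, or the Ets site CCGGAAGT or CCGGAAGC, present in 4.85%. A match of letters does not show that a factor binds there.

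Whether maternal BPA altered the transcripts of this pathway was asked by comparing the BPA with the vehicle libraries. None of the 10 genes reached an adjusted p under 0.1 (quasi-likelihood test of edgeR), where 0% of all genes tested passed. At an unadjusted p under 0.05 there were 0 of the 10 genes, against 2.20% of all genes tested. The BPA and vehicle libraries overlapped for each of the 10 genes, while they did not overlap for 6.75% of all genes tested. Of the 10 genes 5 were higher and 5 lower in BPA, and their median log2 fold change was 0.011, beside 0.002 for all genes. With DESeq2 and with limma-voom 0 of the 10 genes also passed, adjusted or unadjusted. These are whole tissue samples, in which fewer cells of a type and less RNA per cell cannot be told apart.

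**Figure D1:**
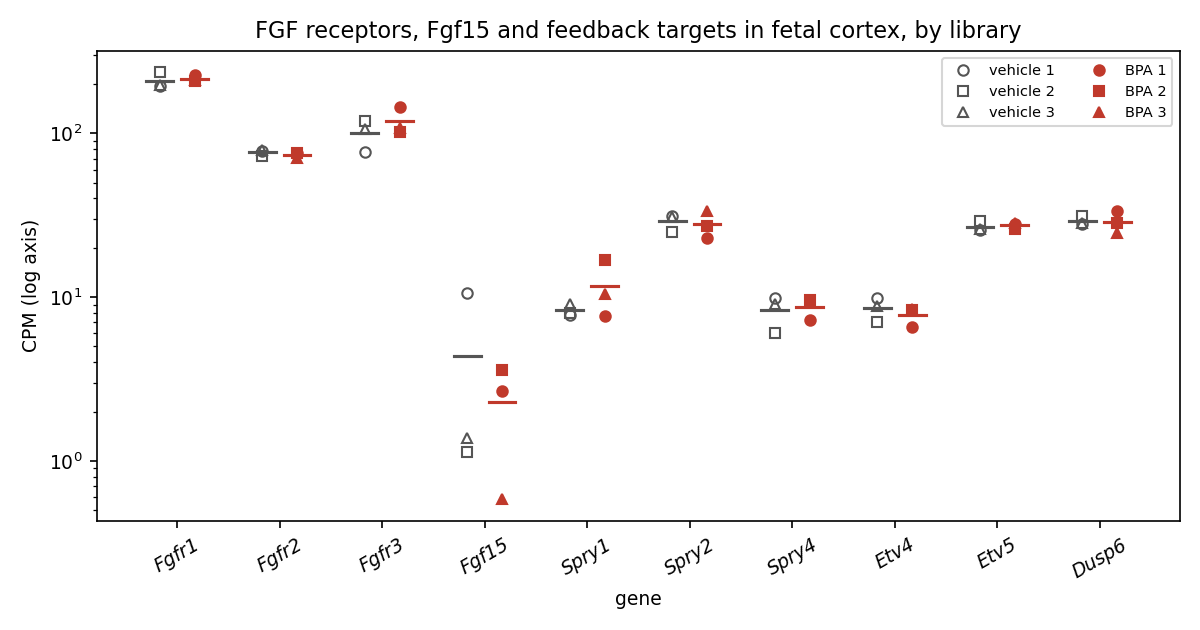
Levels of the 10 genes in each library, in CPM (counts scaled to a common library size) on a log axis, with open gray symbols for the 3 vehicle libraries, filled red symbols for the 3 BPA libraries and a bar at each group mean. The groups overlap for each gene, with 1 high vehicle library for *Fgf15* at 10.6 CPM and 1 high BPA library for *Spry1* at 16.9 CPM.

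The libraries held from 3444601 to 7180835 counts, the shallowest being BPA replicate 3. Levels are given as CPM on library sizes scaled with TMM (trimmed mean of M-values). Markers of the labelled tissue were abundant, with 12 genes of cortical projection neurons summing to between 5140 and 5760 CPM. Radial glia genes (15) summed to between 3170 and 3230 CPM in vehicle and between 3130 and 3180 CPM in BPA. Ventral telencephalon genes (16, none at 0) summed to between 1280 and 1440 CPM in vehicle and between 1090 and 1210 CPM in BPA. Choroid plexus genes (8) summed to 230 CPM in vehicle replicate 2 and 366 CPM in BPA replicate 2, and to between 12.6 and 20.1 CPM in the other 4 libraries.

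*Fgfr1*, the receptor with the broadest role in telencephalic growth (GRCm38 chromosome 8, 25513654 to 25575718, plus strand), was at 193, 236 and 196 CPM in the vehicle libraries and 228, 209 and 210 CPM in the BPA libraries. The BPA libraries lay within the vehicle range. The log2 fold change of BPA over vehicle, where 0 is no difference, was 0.05 with a standard error (SE) of 0.102, and its 95% interval ran from -0.17 to 0.27. *Fgfr2* (chromosome 7, 130162451 to 133123350, minus strand), best known for the ligands of the FGF7 group, was the steadiest of the 10. It was at 77.4, 72.6 and 79.5 CPM in vehicle and 75.8, 75.4 and 70.3 CPM in BPA. BPA over vehicle gave a log2 fold change of -0.05 (SE 0.105, 95% interval -0.27 to 0.18). The annotated span of *Fgfr2* is long because of a transcript that runs into *Ctbp2*, and 2.47% of its 50-base words occur in transcripts of other genes.

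*Fgfr3* (chromosome 5, 33721674 to 33737068, plus strand), whose transcript is known to be graded across the fetal cortex with its high end caudally, varied most among the receptors. Its values were 77.1, 119 and 106 CPM in vehicle and 144, 102 and 108 CPM in BPA. Vehicle replicate 1 was the lowest and BPA replicate 1 the highest, and the other 4 libraries lay together between them. The log2 fold change was 0.23 (SE 0.155, 95% interval -0.10 to 0.56; unadjusted p 0.156, adjusted p 1). Without vehicle replicate 1 it was 0.068, and without BPA replicate 1 it was 0.059. The ratio of *Fgfr3* to *Fgfr1* counts was 0.399, 0.503 and 0.544 in vehicle and 0.629, 0.490 and 0.513 in BPA, so that the same pair of libraries stood at the ends. Of the *Fgfr3* words 11.6% occur in transcripts of other genes. The gene sharing the most lies on the opposite strand and is not among the genes counted.

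*Fgf15* (chromosome 7, 144896531 to 144900953, plus strand) encodes the mouse counterpart of human FGF19, a ligand made in the embryonic brain by progenitors of several regions, and was the only 1 of the 10 with a difference in level of several fold between libraries. It had 72, 8 and 7 counts in vehicle and 17, 22 and 2 counts in BPA, or 10.6, 1.13 and 1.38 CPM and 2.67, 3.58 and 0.584 CPM. Vehicle replicate 1 stood above all other libraries, and the remaining vehicle libraries lay within the BPA range. The value in BPA replicate 3 was below the limit of 3 counts (0.875 CPM there) under which a level is not told from 0. The coefficient of variation over the 6 libraries was 112%, where counting error alone would give 23.5%. The log2 fold change of *Fgf15* was -0.84 (SE 0.671, 95% interval -2.26 to 0.59; unadjusted p 0.229, adjusted p 1). With limma-voom it was -0.32 (unadjusted p 0.667). Without vehicle replicate 1 its sign turned and its size became 1 in favor of BPA (unadjusted p 0.0836, adjusted p 0.999). The direction for *Fgf15* therefore rested on a single library. Of the *Fgf15* words 21.3% occur in transcripts of other genes. The antisense gene *Gm26793*, which overlaps *Fgf15*, had 20, 20 and 20 counts in vehicle and 16, 13 and 10 counts in BPA. It showed no excess in vehicle replicate 1. Whether it shares reads with *Fgf15* cannot be told from these counts, since it is not known how reads over both genes were counted.

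The genes whose pattern over the 6 libraries was nearest to that of *Fgf15* were *Zic4* and *Zic1*, zinc finger transcription factors of the midline and medial forebrain. They were the nearest of 10010 genes averaging at least 10 CPM, with a root mean square difference of centered log2 CPM of 0.423 and 0.692. *Zic4* was at 44.1, 6.76 and 5.52 CPM in vehicle and 5.65, 12 and 3.79 CPM in BPA. *Zic1* was at 164, 59.3 and 50.5 CPM in vehicle and 42.2, 82.2 and 47.0 CPM in BPA. Vehicle replicate 1 was thus the highest and BPA replicate 2 the next highest for *Fgf15*, *Zic4* and *Zic1*, and what these libraries share beyond that was not tested.

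**Figure D2:**
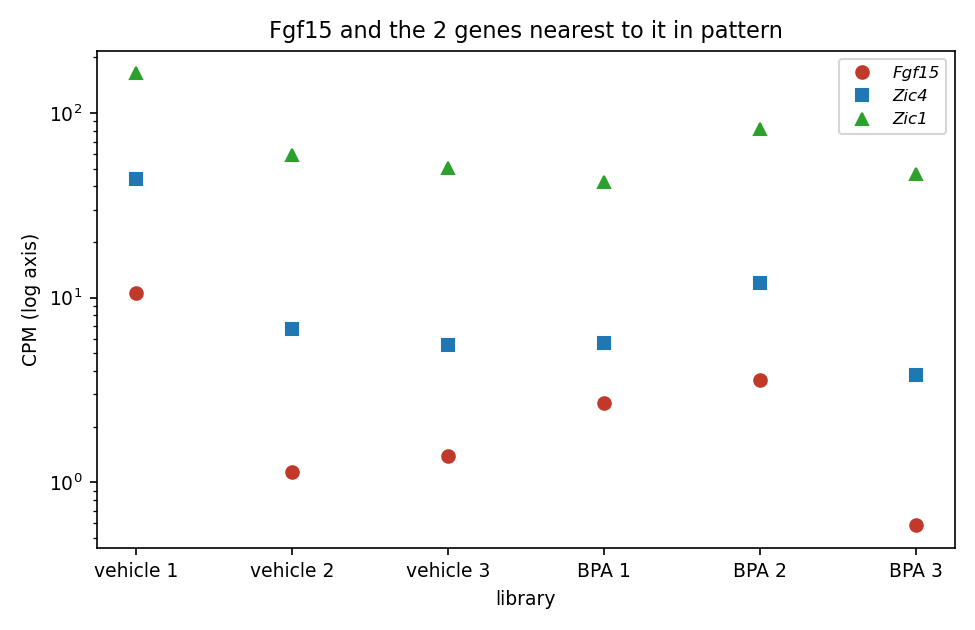
*Fgf15* and the 2 genes nearest to it in pattern, as CPM on a log axis, with 1 point per gene and library. All 3 genes are highest in vehicle replicate 1, where *Fgf15* is at 10.6 CPM and *Zic4* at 44.1 CPM, and second highest in BPA replicate 2.

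Among the Sprouty genes, *Spry1* (chromosome 3, 37639947 to 37644598, plus strand) had the smallest unadjusted p of the 10. It had 53, 57 and 46 counts in vehicle and 49, 104 and 36 counts in BPA. These were 7.80, 8.02 and 9.07 CPM in vehicle, and 7.69 CPM in BPA replicate 1, 16.9 CPM in BPA replicate 2 and a value in between in BPA replicate 3. BPA replicate 1 was below all vehicle libraries and BPA replicates 2 and 3 were above them. For *Spry1* the log2 fold change was 0.51 (SE 0.256, 95% interval -0.03 to 1.06; unadjusted p 0.0627, adjusted p 1). Without BPA replicate 2 it was 0.099. That library had the highest choroid plexus sum (366 CPM). Vehicle replicate 2 had the next highest (230 CPM) and was at 8.02 CPM for *Spry1*. The part of choroid plexus in the *Spry1* value was not tested. Of the *Spry1* words 21.8% occur in transcripts of other genes. The gene sharing the most overlaps *Spry1* on the opposite strand and is not among the genes counted.

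*Spry2* (chromosome 14, 105891947 to 105896819, minus strand), the most abundant Sprouty here per length, was at 31.2, 24.8 and 31.0 CPM in vehicle and 22.9, 27.0 and 33.6 CPM in BPA, with a log2 fold change of -0.08 (SE 0.156). *Spry4* (chromosome 18, 38586247 to 38601415, minus strand) was at 9.85, 6.05 and 9.07 CPM in vehicle and 7.22, 9.59 and 9.34 CPM in BPA, with a log2 fold change of 0.06 (SE 0.231). The lowest and highest libraries were both from BPA for *Spry2* and both from vehicle for *Spry4*. Intervals of 95% ran from -0.41 to 0.25 for *Spry2* and from -0.43 to 0.55 for *Spry4*.

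The Ets factors ETV4 and ETV5 carry the FGF signal into transcription. *Etv5* (chromosome 16, 22381309 to 22439719, minus strand), the gene of the first sequence above, was at 25.6, 29.1 and 26.0 CPM in vehicle and 28.0, 26.2 and 28.3 CPM in BPA. All BPA libraries lay within the vehicle range. Its log2 fold change was 0.02 (SE 0.129, 95% interval -0.25 to 0.30), and its coefficient of variation of 5.35% was below the 8.20% that counting error alone would give. *Etv4* (chromosome 11, 101769742 to 101785371, minus strand) was at 9.85, 7.04 and 8.87 CPM in vehicle and 6.60, 8.29 and 8.46 CPM in BPA, a log2 fold change of -0.15 (SE 0.217, 95% interval -0.61 to 0.31). Of the *Etv5* words 24.5% occur in transcripts of other genes, with *Gm4798*, which is not among the genes counted, sharing the most. *Etv4*, *Spry2*, *Spry4* and *Dusp6* shared none.

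*Dusp6* (chromosome 10, 99263231 to 99267489, plus strand) was at 27.8, 31.1 and 28.2 CPM in vehicle and 33.3, 28.3 and 24.5 CPM in BPA. Group means (± SD, n = 3) were 29.0 ± 1.81 and 28.7 ± 4.41 CPM, and the highest and the lowest library were both from BPA. Its log2 fold change was -0.0028 (SE 0.139, 95% interval -0.30 to 0.29). The unadjusted p of *Dusp6*, 0.984, was the largest of the 10.

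**Figure D3:**
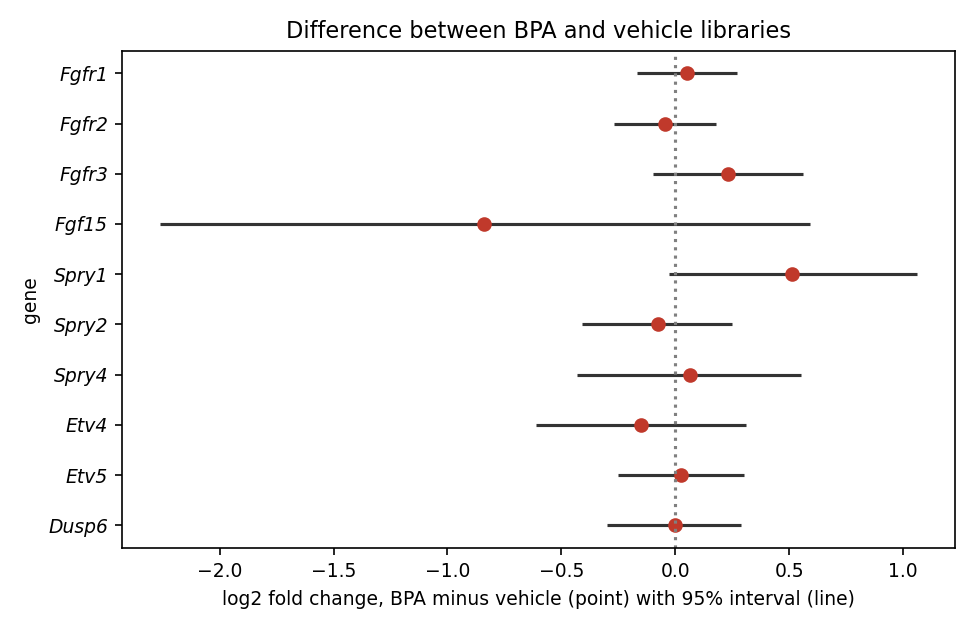
Log2 fold change of BPA over vehicle for the 10 genes (point) with its 95% interval (line). Each interval includes 0, and the widest is that of *Fgf15*, from -2.26 to 0.59.

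Levels were compared between genes as CPM per kilobase of exonic length. This length joins all annotated exons of a gene and can exceed that of the transcripts expressed. For *Fgfr2* it includes the transcript that runs into *Ctbp2*, so its level per kilobase may be too low. *Fgfr1* stood highest, from 19.5 to 23.9 over the 6 libraries, followed by *Fgfr3* (10.8 to 20.1) and *Spry2* (11.0 to 16.1), and each of these overlapped the next. *Dusp6* came after them without overlap on either side, at 7.82 to 10.6. *Fgfr2* (6.81 to 7.70) and *Etv5* (6.24 to 7.09) overlapped each other. Below them lay *Spry1* (2.65 to 5.82) and *Etv4* (2.13 to 3.17), which overlapped, and then *Spry4* (1.27 to 2.07) and *Fgf15* (0.191 to 3.47), which also did. The wide range of *Fgf15* reached into those of *Etv4* and *Spry1* as well.

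The remaining FGF pathway was described by 5 lists of 97 genes in all, of which 77 had enough reads to be tested. None of the 77 passed the adjusted threshold in edgeR, in DESeq2 or in limma-voom, and 2 (2.60%, against 2.20% of all genes) had an unadjusted p under 0.05 in the first of these. The groups did not overlap for 4 genes (5.19%, against 6.75%). The median log2 fold change was -0.002, with 38 genes higher and 39 lower in BPA.

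Of the other FGFs, 7 of 21 were tested, 4 higher and 3 lower with a median of 0.022. *Fgf9*, a neuronal and glial ligand, was at 3.53, 4.22 and 4.54 CPM in vehicle and 2.04, 2.11 and 2.33 CPM in BPA. All 3 BPA libraries lay below all 3 vehicle libraries, on 8 to 30 counts per library, and 3.56% of all genes tested were lower in BPA in this way. The log2 fold change of *Fgf9* was -0.92 (SE 0.299, 95% interval -1.56 to -0.29; unadjusted p 0.00715, adjusted p 1). The ventral telencephalon genes were lower in the same libraries, 13 of 16 without overlap and with a median log2 fold change of -0.323, as was already known when the list was written, and their part in the *Fgf9* value was not tested. *Fgf7*, a ligand for the epithelial form of FGFR2, had too few reads to be tested, with 16, 12 and 8 counts in vehicle and 7, 6 and 2 counts in BPA. The remaining 13 untested ligands include *Fgf8*, the main rostral patterning ligand, which had at most 2 counts in any library and is named here outside the rule for named genes. The intracellular FGFs act inside neurons and not through these receptors. Among them *Fgf11* was at 41.6, 52.5 and 41.4 CPM in vehicle and 55.6, 44.0 and 45.2 CPM in BPA (log2 fold change 0.10, SE 0.135), and *Fgf14* had a log2 fold change of -0.16 (SE 0.170).

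Of the other receptors and co-receptors, *Fgfr4* and the decoy receptor gene *Fgfrl1* were tested, with log2 fold changes of 0.10 (SE 0.302) and 0.13 (SE 0.181). Of the other feedback inhibitors and targets, 19 of 23 were tested, 10 higher and 9 lower with a median of 0.002. *Dusp4*, a nuclear ERK phosphatase, was the only 1 of the 19 with groups that did not overlap, at 133, 125 and 128 CPM in vehicle and 134, 134 and 142 CPM in BPA. Its log2 fold change was 0.09 (SE 0.0948, unadjusted p 0.366), and 3.19% of all genes tested were higher in BPA in this way. The smallest unadjusted p values of the 19 were those of *Myc* (log2 fold change -0.18, SE 0.136), *Egr1* (-0.39, SE 0.375) and *Ccnd1* (-0.14, SE 0.140), with groups that overlapped in all 3.

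All 29 adaptors and kinases of the RAS-ERK chain were tested, and their log2 fold changes lay between -0.19 and 0.14 with a median of -0.003. *Araf*, a RAF kinase, had a log2 fold change of 0.14 (SE 0.107), *Rps6ka1*, a kinase below ERK, -0.19 (SE 0.165), and *Frs3*, an adaptor of the FRS2 family, -0.18 (SE 0.139) with groups that did not overlap. *Cic*, named here for the octamers above and not by the rule, was at 451, 605 and 479 CPM in vehicle and 560, 479 and 480 CPM in BPA.

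Heparan sulfate binds FGFs to their receptors, and all 20 genes of its core proteins and enzymes were tested, 8 higher and 12 lower with a median of -0.007. The sulfatase genes *Sulf1* and *Sulf2*, which trim the 6-O-sulfates, had the smallest unadjusted p of the list. *Sulf2* was at 94.6, 88.4 and 81.4 CPM in vehicle and 60.0, 84.7 and 68.6 CPM in BPA, with a log2 fold change of -0.31 (SE 0.129, unadjusted p 0.0289, adjusted p 1). BPA replicate 2 lay within the vehicle range and the other BPA libraries below it. *Sulf1* was at 6.77, 17.5 and 8.28 CPM in vehicle and 14, 26.2 and 8.17 CPM in BPA, with a log2 fold change of 0.61 (SE 0.352). Its highest values fell in the libraries with the highest choroid plexus sums, vehicle replicate 2 and BPA replicate 2, and the part of that tissue was not tested. *Sdc4*, a syndecan gene, had a log2 fold change of -0.42 (SE 0.340), with groups that did not overlap on 4 to 21 counts per library.

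**Figure D4:**
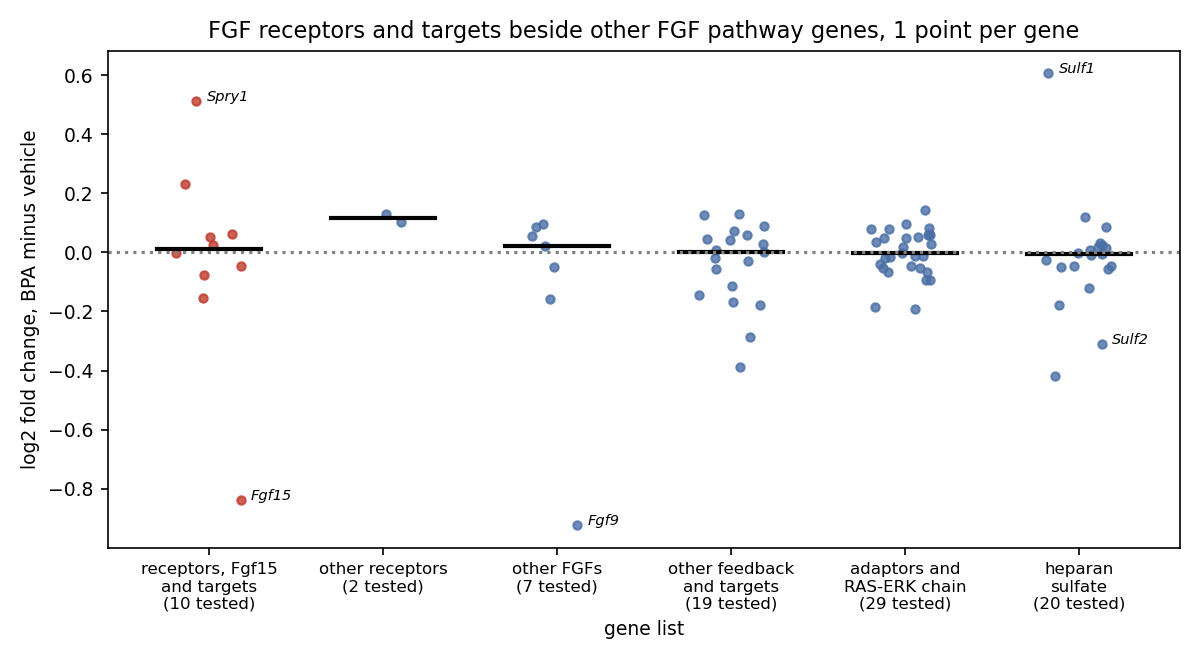
Log2 fold change of BPA over vehicle, 1 point per tested gene, for the 10 genes (red) and the 5 other FGF pathway lists (blue), with a black bar at each list's median and a dotted line at the median of all genes. The list medians lie between -0.007 and 0.117, and *Fgf9* at -0.92 and *Fgf15* at -0.84 are the lowest points.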

How the data were processed

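Total RNA of fetal brain cortex was made into strand-specific libraries and sequenced as single-end reads of 50 bases. According to the study's methods and the submitters' processing notes, reads were aligned to GRCm38 with TopHat2 2.0.14, and featureCounts assigned them to GENCODE genes. The authors deposited raw read counts per gene symbol. Strand and multiple-alignment options of the counting are not given in the sources used here. Groups came from the treatment label, and replicates were numbered in accession order.

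The counts of genes that passed filterByExpr of edgeR 4.0.16 (minimum count 10, minimum total 15; R 4.3.3) were scaled by TMM and tested with edgeR's quasi-likelihood test over all 13741 genes. P-values were adjusted by Benjamini and Hochberg, with 0.1 as threshold, as in the study. SEs are those implied by the test statistic, and 95% intervals use its degrees of freedom. CPM and log2 CPM (prior count 2) used TMM-scaled totals of the tested genes. The floor of 3 counts and the counting error leave out variation between fetuses. The alternatives were DESeq2 1.42.0, limma-voom (limma 3.58.1), other scalings and filters, and omission of each library. The code was tested on simulated data.

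Positions, exonic lengths and shared 50-base words (both strands) came from GENCODE M21 (GRCm38), and promoter windows from RefSeq GRCm38.p6. The 10 genes, the pathway lists and the marker lists were chosen with earlier results of these data known. Named beyond the 10 genes were, per list, the 3 genes with the smallest p averaging at least 1 CPM and genes whose groups did not overlap, and for pattern the 3 genes nearest the gene with the widest log2 CPM range, of which 1 is not reported here.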

Additional observations from a re-analysis of the deposited data

How the results depend on the processing

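None of the 10 genes and none of the other FGF pathway genes passed an adjusted p of 0.1 under any alternative, although 4 of the 10 were removed by a minimum of 10 CPM. The smallest adjusted p among the alternatives was 0.949, for *Fgfr3* and *Fgf15* without vehicle replicate 2. Over all genes the count past the threshold, 0 with edgeR's quasi-likelihood test, was 19 with no filter, where 23501 genes were tested, and 3 with DESeq2, and it ran from 0 to 1 when 1 library was left out. The cause was not tested. An unadjusted p under 0.05 was reached by *Fgf15* (0.00886) and *Spry1* (0.0152) with no filter, by *Fgf15* (0.0381) and *Fgfr3* (0.0324) without vehicle replicate 2, and by *Spry1* (0.00551) without BPA replicate 1.

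The direction turned for 6 genes when 1 library was left out. Log2 fold changes then ran from -0.0021 to 0.153 for *Fgfr1*, from -1.33 to 1 for *Fgf15*, from -0.212 to 0.0497 for *Spry2*, from -0.135 to 0.218 for *Spry4*, from -0.0142 to 0.0883 for *Etv5* and from -0.128 to 0.0828 for *Dusp6*. *Dusp6* was also positive with library size alone (0.0024). Across the same omissions *Spry1* ran from 0.099 to 0.772, *Fgfr3* from 0.0591 to 0.375, *Fgfr2* from -0.0812 to -0.0156 and *Etv4* from -0.287 to -0.0324. No paired analysis was possible because the labels carry no replicate numbers shared between the groups. Depth limits *Fgf15* and the ligands most, with 2 to 72 counts per library for *Fgf15*.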
